A study of Mus musculus with 23 samples.

Results

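Transcripts of 10 chemokine genes were followed in mouse embryonic fibroblasts that carry oncogenic H-Ras and differ in p53. The genes were Cxcl10, Ccl5, Cxcl1, Cxcl5, Ccl2, Ccl7, Cxcl16, Cx3cl1, Cxcl12 and Ccl9. They were taken by symbol. Every probe set whose single annotated symbol was on this list was taken, which gave 19 probe sets for 10 of the 18193 genes represented on the arrays. Levels and tests are those of the probe set highest on average for each gene, unless another is named. All 10 genes passed the filter on low values and so belonged to the 15266 genes tested.

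RNA was measured on 23 Affymetrix oligonucleotide arrays, 1 per sample. All cells were infected with a retrovirus for H-Ras V12, a mutant Ras known to drive cells with wild-type p53 into premature senescence, a lasting arrest. Most cells held a p53 knock-in allele behind a stop cassette (LSL), which Cre recombinase from an adenovirus removes. The titles gave 7 kinds of sample. LSL-WT Cre (n = 3) held a wild-type allele switched on by Cre, and LSL-WT Empty (n = 3) held the same allele with an adenovirus that carries no Cre, so that the cassette stayed in place. WT Cre (n = 3) and Null Cre (n = 3) were titled as wild-type and p53-null cells given the Cre virus. The 25,26 samples (n = 5, L25Q/W26S) had a changed first transactivation domain of p53, the 53,54 samples (n = 3, W53Q/F54S) a changed second one, and the QM samples (n = 3) carried both pairs of changes. The study joined LSL-WT Cre and WT Cre as WT (n = 6) and LSL-WT Empty and Null Cre as Null (n = 6). The background was 129/Sv in 14 samples and mixed with C57BL6 in 9, and all 3 Null Cre samples were 129/Sv while the other kinds held both. For WT Cre replicate 3 the genotype label names LSL-WT while the title does not, and Null Cre replicate 4 is labelled a knock-in. It is not given how many copies of each allele a cell held, and no label ties a sample to an embryo, so that p-values measure only the spread between these samples, which the submitters call biological.

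The levels of p53 targets followed the labels. The log2 level of Mdm2, which encodes the ubiquitin ligase that limits p53, was 12.60 to 13.65 in WT and 10.27 to 10.44 in Null. The transcripts of the targeted gene and the Ras transgene were not used here. All 10 fibroblast markers lay above the filter level on all arrays, and 4 of them fell in WT against Null (Col3a1, Dcn, Pdgfra and Pdgfrb; summed log2 level of the 10 from 16.51 to 16.91 in WT and 16.64 to 17.27 in Null). Of 10 macrophage markers 6 lay above the filter level on all arrays (Cd68, Cd14, Csf1r, Lyz2, Mrc1 and Fcer1g), while Ptprc and Itgam, the defining leukocyte and myeloid markers, lay at or below it on all. Among them Cd68 rose and Mrc1 fell in WT against Null, with a summed log2 level of 9.37 to 10.17 in WT and 9.36 to 10.11 in Null. Of 6 T cell markers 3 lay above the filter level on all arrays (Cd3e, Cd4 and Cd8a) and 2 at or below it (Cd3g and Cd2), and of 6 endothelial markers 2 lay above (Kdr and Cdh5) and 2 at or below (Pecam1 and Emcn). Among epithelial markers 4 of 7 rose in WT against Null (summed log2 level 12.13 to 12.89 in WT and 10.88 to 12.10 in Null). These counts of markers that rose or fell are to be read against the 22.7% of all genes tested that were called in WT against Null. The part of these markers in the chemokine results was not tested. Xist, the RNA of the inactive X chromosome and a mark of female cells, had a log2 level of 11.47 to 11.86 in WT Cre and of 5.72 to 6.81 in Null Cre, so that sex and p53 cannot be told apart between those kinds of sample. The joined groups were not balanced for sex either. Median Xist was 11.54 in WT, 12.21 in 25,26 and 12.19 in QM, against 6.65 in Null and 6.72 in 53,54. Single arrays ranged from 6.40 to 12.71 in WT and from 5.72 to 12.62 in Null. The precision is limited by the number of arrays.

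Chemokines are small secreted proteins that bind G protein-coupled receptors and draw leukocytes along a gradient. Fibroblasts make several of them after infection, wounding or oncogene activation, and senescent cells are known for secreting many together with cytokines such as IL-6. Most inducible chemokine genes are switched on by NF-kB, while CXCL10 and CCL5 also answer to interferon-regulated transcription factors. CXCL10 and CCL5 draw T cells, CXCL1 and CXCL5 draw neutrophils through CXCR2, CCL2 and CCL7 draw monocytes through CCR2, CXCL16 and CX3CL1 are made as membrane-bound forms that proteases release, CXCL12 binds CXCR4 and holds stem cells in their niche, and CCL9 is a ligand of CCR1.

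A promoter sequence matched by symbol was at hand for 5 of the 10 genes. The 250 bases before the start are shown for 3 of them on GRCm38.p6, because Cxcl10 had the largest fall in WT, Cxcl1 was lowest in the arrays of title number 2, and Cxcl12 was called in no comparison. Capitals mark matches to the NF-kB consensus, to GAAA followed after any 2 bases by GAAA, a core of interferon response elements, and to TGANTCA, the AP-1 core, each searched on both strands. The Cxcl10 window lies at chr5:92348890-92349139 on the minus strand, that of Cxcl1 at chr5:90890995-90891244 on the plus strand and that of Cxcl12 at chr6:117168285-117168534 on the plus strand.
Cxcl10: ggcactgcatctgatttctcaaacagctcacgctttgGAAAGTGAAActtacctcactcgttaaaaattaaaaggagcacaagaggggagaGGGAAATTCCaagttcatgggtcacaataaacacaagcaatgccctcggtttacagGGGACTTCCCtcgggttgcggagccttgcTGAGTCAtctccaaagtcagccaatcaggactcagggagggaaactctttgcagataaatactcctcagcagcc
Cxcl1: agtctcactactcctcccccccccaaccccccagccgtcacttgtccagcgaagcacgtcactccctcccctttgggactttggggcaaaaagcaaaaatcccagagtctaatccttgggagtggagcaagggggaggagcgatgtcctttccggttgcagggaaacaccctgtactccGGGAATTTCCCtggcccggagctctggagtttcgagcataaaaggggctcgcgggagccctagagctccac
Cxcl12: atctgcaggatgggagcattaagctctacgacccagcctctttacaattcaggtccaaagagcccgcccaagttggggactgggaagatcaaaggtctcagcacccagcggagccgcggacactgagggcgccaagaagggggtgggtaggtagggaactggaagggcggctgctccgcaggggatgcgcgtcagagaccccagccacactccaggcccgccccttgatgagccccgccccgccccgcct
From left to right the capitals in Cxcl10 are 1 match to the GAAA pair (213 to 204 bases before the start), 2 to the NF-kB consensus (159 to 150 and 103 to 94) and 1 to TGANTCA (74 to 68). In Cxcl1 they are 2 NF-kB matches on opposite strands that overlap in all but 1 base at each end (71 to 61 bases before the start), and the Cxcl12 window held none of the 3 motifs. The Ccl9 window held 1 NF-kB match and 1 TGANTCA match, and that of Cx3cl1 held none. Of 32851 promoter windows of the same length, 3.9% held the NF-kB consensus, 2.98% the GAAA pair and 6.75% TGANTCA. A match is a description of letters and not of a bound factor.

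Across the comparisons Cxcl10 was the chemokine called most often. Levels are log2 intensities, differences are log2 differences ± SE from limma over all 23 arrays, and a gene was called when its Benjamini-Hochberg adjusted p over the 15266 genes was under 0.05. Unless a block on the title number is named, the fits leave out the pairing of same-number arrays described under the processing. In WT against Null 3 of 10 chemokines fell (Cxcl10, Ccl5 and Cxcl5) and none rose, where 22.7% of all genes tested were called and 11.8% of all genes tested were called lower. In 53,54 against Null 1 fell (Cxcl10, background 19.6%), in 25,26 against Null 0 were called by limma (background 4.30%, with 1 at an unadjusted p under 0.05, Cxcl10) and in QM against Null 0 (background 0.0131%, with 0 at an unadjusted p under 0.05). Against WT, 1 was higher in 25,26 (Cxcl10, background 7.70%), 2 in QM (Cxcl10 and Ccl5, background 13.9%) and 0 in 53,54 (background 0.367%, with 0 at an unadjusted p under 0.05). The comparisons with Null share the same 6 arrays, and those with WT share the same 6, so these counts do not stand for independent results. The median difference of the 10 genes in WT against Null was -0.29, against 0.00 over all genes tested. The count of 3 lay close to the background share, so that it is no result about chemokines as a set. In bulk RNA, fewer cells with a transcript and less of it per cell cannot be told apart.

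**Figure D1:**
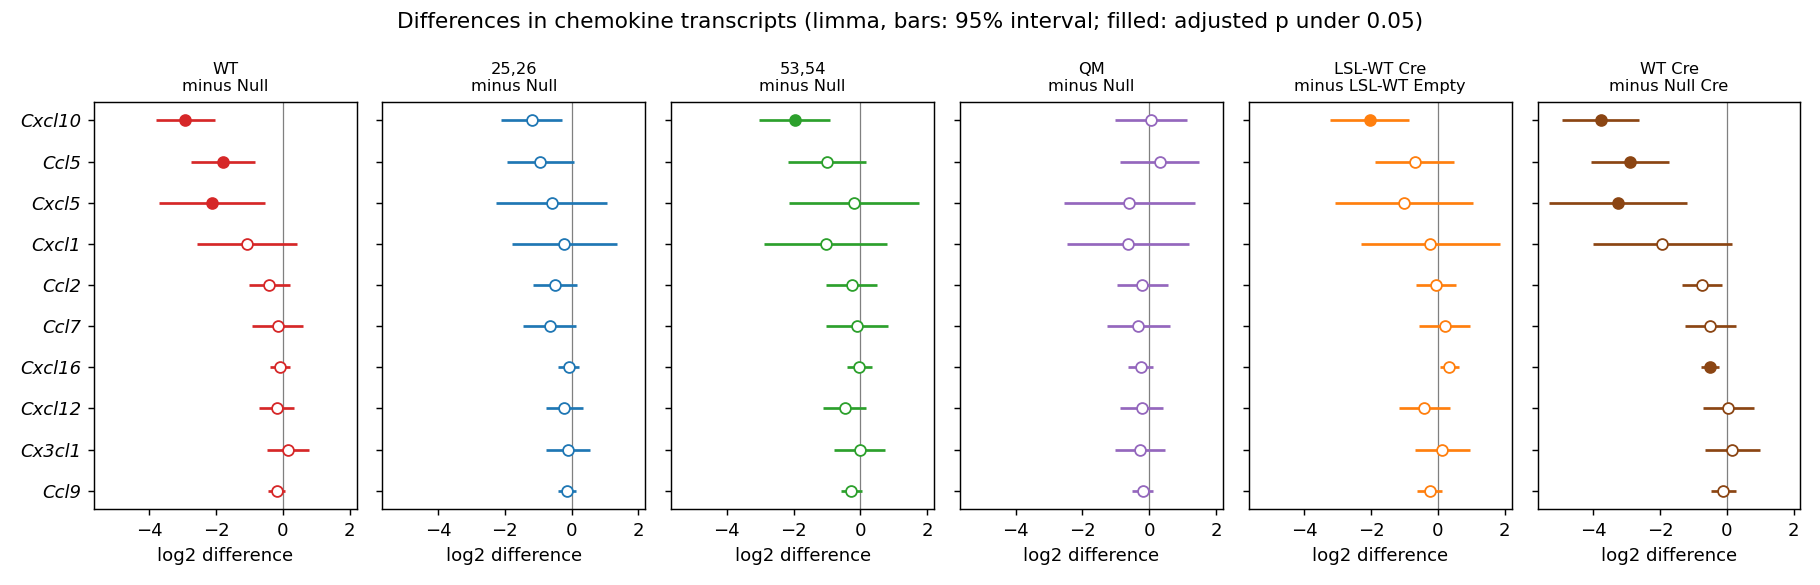
Log2 differences of the 10 chemokine transcripts in 6 comparisons, with bars for the 95% interval from limma and filled points for an adjusted p under 0.05. Cxcl10 lies below 0 and filled in 4 panels (WT, 53,54, LSL-WT Cre and WT Cre), at -1.20 and open in 25,26, and at 0.06 in QM.

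Cxcl10, which encodes the interferon-induced ligand of CXCR3, was high in Null and QM and lowest in WT. In WT Cre its log2 level was 6.24, 6.26 and 6.46, and in LSL-WT Cre 7.31, 6.16 and 8.52. In Null Cre it was 10.44, 10.58 and 9.29, and in LSL-WT Empty 8.83, 8.67 and 10.63. The highest WT array, LSL-WT Cre replicate 3, stayed under the lowest Null array, so that the groups did not overlap (5.16% of genes tested lay lower in WT without overlap). The mean was 6.82 ± 0.93 (SD, n = 6) in WT and 9.74 ± 0.91 (SD, n = 6) in Null, and Cxcl10 fell by 2.92 on the log2 scale (difference -2.92 ± 0.42, adjusted p = 2.83e-05, limma), a 7.55-fold lower level. In all 27 alternatives run the call remained, with adjusted p from 3.03e-06 to 0.00204.

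The transactivation mutants lay between these groups for Cxcl10, except QM. In QM, in which both domains are changed, the level was 9.90, 9.71 and 9.80, well inside the Null range. The difference between QM and Null was 0.06 ± 0.52 with a 95% interval of -1.01 to 1.14, so that a rise or fall of up to about these sizes could not be told from none. Against WT, QM was higher by 2.98 ± 0.52 (adjusted p = 4.31e-04, 7.89-fold, limma), without overlap (8.76% of genes tested lay higher in QM without overlap), and the call remained in all 23 alternatives. In 53,54 the level was 7.44, 7.75 and 8.13, below all Null arrays (10.4% of genes tested lay lower in 53,54 without overlap), and fell by 1.97 against Null (-1.97 ± 0.52, adjusted p = 0.0085, 3.92-fold lower, limma). That call was missed without 53,54 replicate 2 (-1.80, adjusted p = 0.0509) and with the LSL-WT Empty arrays alone as Null (-1.61, adjusted p = 0.075), and over its 24 alternatives the adjusted p ranged from 1.79e-04 to 0.075. Against WT, 53,54 stood 0.95 ± 0.52 higher (adjusted p = 0.763, interval -0.13 to 2.02), which neither shows a difference nor shows that the levels are alike.

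The 25,26 cells had an intermediate level of Cxcl10. Their 5 arrays read 8.78, 7.66, 9.73, 8.36 and 8.19, overlapping with the Null arrays at the upper end and with LSL-WT Cre at the lower. Against WT the level was higher by 1.72 ± 0.44 (adjusted p = 0.0189, 3.29-fold, limma). Over 25 alternatives the adjusted p lay between 0.00276 and 0.286, and 4 of them ended the call, among them leaving out 25,26 replicate 3 (1.42, adjusted p = 0.0671) and taking LSL-WT Cre alone as WT (1.21, adjusted p = 0.286). Against Null the difference was -1.20 ± 0.44 (adjusted p = 0.152, interval -2.12 to -0.28). Array weights, which give noisier arrays less influence, called it (-1.50, adjusted p = 0.0162), and the range over its 26 alternatives was 0.0162 to 0.506. By mean level the order was QM, Null, 25,26, 53,54 and WT, and each group overlapped with its neighbour in that order.

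**Figure D2:**
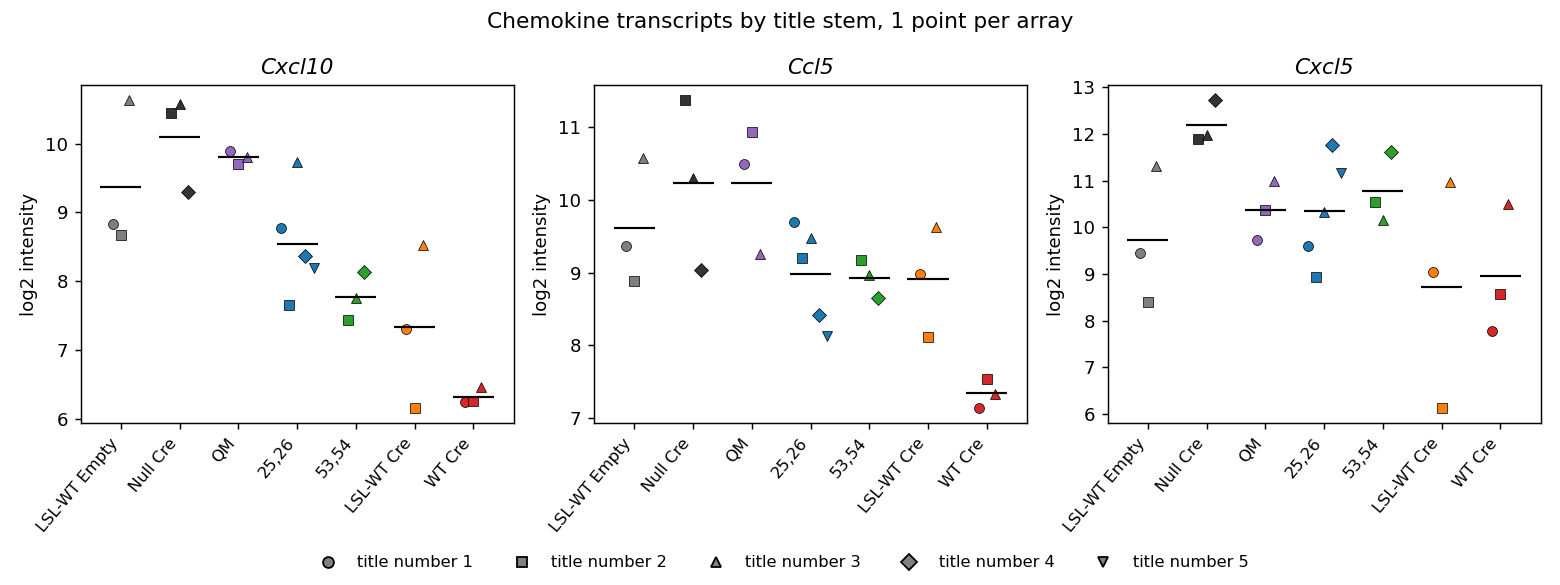
Log2 intensity of Cxcl10, Ccl5 and Cxcl5 in each of the 23 arrays by kind of sample, with bars at the means and shapes for the number in the sample title. For Cxcl10 the WT Cre arrays lie at 6.24 to 6.46 and the QM arrays at 9.71 to 9.90, while LSL-WT Cre and LSL-WT Empty each span about 2 units.

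With the same allele on or off, Cxcl10 was lower in the Cre array of each title number. LSL-WT Cre and LSL-WT Empty differ in Cre as well as in p53, and these cannot be told apart between them. Between LSL-WT Cre and LSL-WT Empty the array with the same title number was lower by 1.53, 2.51 and 2.11 (differences of -1.53, -2.51 and -2.11 for numbers 1, 2 and 3). The groups did not overlap (14.4% of genes tested lay lower without overlap), and Cxcl10 fell by 2.05 (-2.05 ± 0.56, adjusted p = 0.0194, 4.14-fold, limma), the only member called where 11.7% of genes tested were. A block on the title number, which removes what same-number arrays share, gave an adjusted p of 0.00344. The call was lost without LSL-WT Cre replicate 1 (adjusted p = 0.0518), LSL-WT Cre replicate 2 (-1.46, adjusted p = 0.146) or LSL-WT Empty replicate 3 (-1.42, adjusted p = 0.131), within a range of 0.00344 to 0.168 over 19 alternatives. Between WT Cre and Null Cre it fell by 3.78 (-3.78 ± 0.56, adjusted p = 1.19e-04, 13.8-fold), and all 19 alternatives kept the call. The falls in these 2 parts differed by -1.74 ± 0.79 (adjusted p = 0.608, interval -3.39 to -0.08), so a difference between them was not shown.

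Ccl5, which encodes a chemokine that draws T cells and monocytes, had the same order of group means as Cxcl10. Its log2 level was 7.14, 7.54 and 7.33 in WT Cre and 8.98, 8.12 and 9.63 in LSL-WT Cre. It was 11.37, 10.30 and 9.03 in Null Cre and 9.37, 8.89 and 10.58 in LSL-WT Empty. Here LSL-WT Cre overlapped with the Null arrays and WT Cre did not. Ccl5 fell by 1.80 in WT against Null (-1.80 ± 0.46, adjusted p = 0.00615, 3.47-fold, limma). The call held in 25 of 27 alternatives (adjusted p from 0.00136 to 0.071), and was missed with LSL-WT Empty alone as Null (-1.49, adjusted p = 0.0636) and without the arrays of title number 2 (-1.55, adjusted p = 0.071).

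The 2 parts of that comparison gave unlike values for Ccl5. Between WT Cre and Null Cre it fell by 2.89 (-2.89 ± 0.56, adjusted p = 0.00147, 7.43-fold), and all 19 alternatives kept the call. The arrays did not overlap there, where 12.6% of genes tested lay lower without overlap. Between LSL-WT Cre and LSL-WT Empty the difference was -0.70 ± 0.56 (adjusted p = 0.559, interval -1.88 to 0.48). That SE and interval leave out the pairing of same-number arrays, which held in this comparison. Of 19 alternatives, the block among them, 0 passed (adjusted p from 0.351 to 0.93). Ccl5 was lower in all 3 same-number pairs, at -0.38, -0.77 and -0.95. The difference between the parts was -2.19 ± 0.80 (adjusted p = 0.446, interval -3.86 to -0.53) and did not pass the threshold.

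Among the mutants, Ccl5 was 10.50, 10.93 and 9.26 in QM, 9.70, 9.20, 9.48, 8.41 and 8.13 in 25,26, and 9.17, 8.96 and 8.65 in 53,54. QM overlapped with Null and, by replicate 3, with LSL-WT Cre. It was higher than WT by 2.11 ± 0.56 (adjusted p = 0.0139, 4.31-fold, limma), and 5 of 23 alternatives ended that call (range 0.00384 to 0.196), among them leaving out QM replicate 1 (1.97, adjusted p = 0.07) or QM replicate 2 (1.76, adjusted p = 0.099). Against Null, 25,26 differed by -0.94 ± 0.48 (adjusted p = 0.345, interval -1.94 to 0.07), and the interval for 53,54 was -2.16 to 0.17 (adjusted p = 0.258). With array weights 25,26 passed the threshold (-1.36, adjusted p = 0.0436, range 0.0436 to 0.658 over 26 alternatives).

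Of the CXCR2 ligands, Cxcl5 had the largest span of the 10 genes, 6.59 log2 units over the arrays. It was 11.88, 11.98 and 12.72 in Null Cre but 9.44, 8.39 and 11.32 in LSL-WT Empty. It was 7.78, 8.56 and 10.50 in WT Cre and 9.03, 6.13 and 10.97 in LSL-WT Cre. Each Null Cre array lay above every array of the other 6 kinds, while LSL-WT Empty overlapped with the WT arrays, with replicate 3 above all of them. Cxcl5 fell by 2.13 in WT against Null, at the edge of the threshold (-2.13 ± 0.77, adjusted p = 0.0495, 4.37-fold, limma). Blocked by title number the value was -1.71 (adjusted p = 0.0327). Only 10 of 27 alternatives kept the call (adjusted p from 0.00706 to 0.593). It was lost when any of 8 single arrays was left out, at adjusted p up to 0.135 without LSL-WT Cre replicate 2, with Xist as a covariate (-1.26, adjusted p = 0.199) and with LSL-WT Empty alone as Null (-0.89, adjusted p = 0.593).

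The fall of Cxcl5 was called against the Null Cre arrays. Between WT Cre and Null Cre it fell by 3.25 (-3.25 ± 0.98, adjusted p = 0.0289, 9.49-fold) with no overlap (12.6% of genes tested lay lower without overlap). With Xist as a covariate the value was -1.49 (adjusted p = 0.328, range 0.0125 to 0.328 over 19 alternatives). Leaving out an array other than WT Cre replicate 3 also ended this call, with adjusted p of 0.0534 to 0.136. Between LSL-WT Cre and LSL-WT Empty the difference was -1.01 ± 0.98 (adjusted p = 0.659, interval -3.07 to 1.05). In the mutants Cxcl5 was 9.73 to 11.00 in QM, 8.93 to 11.76 in 25,26 and 10.15 to 11.61 in 53,54, and no difference from Null or WT passed the threshold. The value of 53,54 minus WT was 1.94 ± 0.94 (adjusted p = 0.692, interval -0.01 to 3.89).

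Cxcl1, the main fibroblast ligand of CXCR2, varied widely between arrays of the same kind. Its log2 level was 11.65, 12.67 and 12.95 in Null Cre, 11.17, 9.06 and 11.84 in LSL-WT Empty, 10.84, 9.67 and 10.98 in WT Cre and 11.46, 8.77 and 11.17 in LSL-WT Cre. In QM it was 11.06, 9.64 and 12.09, in 53,54 8.74, 10.81 and 11.99, and in 25,26 11.81, 8.64, 11.75, 12.44 and 12.03. In each of the 7 kinds of sample the array with number 2 in its title was the lowest, by 1.16 to 3.37 log2 units below the mean of the others (differences of -1.16 to -3.37, median -2.44). The labels do not say what the number marks. WT minus Null was -1.08 ± 0.72 (adjusted p = 0.339, interval -2.57 to 0.42). The difference of 53,54 from Null was -1.04 ± 0.88 (adjusted p = 0.501), and blocked by title number it was -1.25 (adjusted p = 0.0393, range 0.0393 to 0.951 over 24 alternatives). In that blocked fit 3 of 10 chemokines passed (Cxcl10, Cxcl1, and Ccl9 at -0.34, adjusted p = 0.0285), where 31.8% of genes tested did. Between WT Cre and Null Cre no array overlapped (-1.93 ± 0.99, adjusted p = 0.224, interval -4.00 to 0.15), where 12.6% of genes tested lay lower without overlap. Of 19 alternatives 3 passed (range 0.00729 to 0.827). The other 2 probe sets of Cxcl1 followed the one used over the arrays (r = 0.98 and 0.99).

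The low arrays of title number 2 were not a feature of all 10 genes. Cxcl5 was lowest in array 2 in 4 of 7 kinds of sample (-3.88 to -0.01 from the mean of the others), and Cxcl10 and Ccl2 in 5 of 7. Ccl7 was lowest in 4, Cx3cl1 in 3, Ccl5 and Ccl9 in 2, Cxcl12 in 1 and Cxcl16 in 0. In Null Cre the array with number 2 was instead the highest of the 3 for Ccl5, Ccl2, Ccl7, Cxcl16 and Cxcl12. These arrays were 129/Sv in all kinds but 53,54, and the part of the background in the pattern was not tested.

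**Figure D3:**
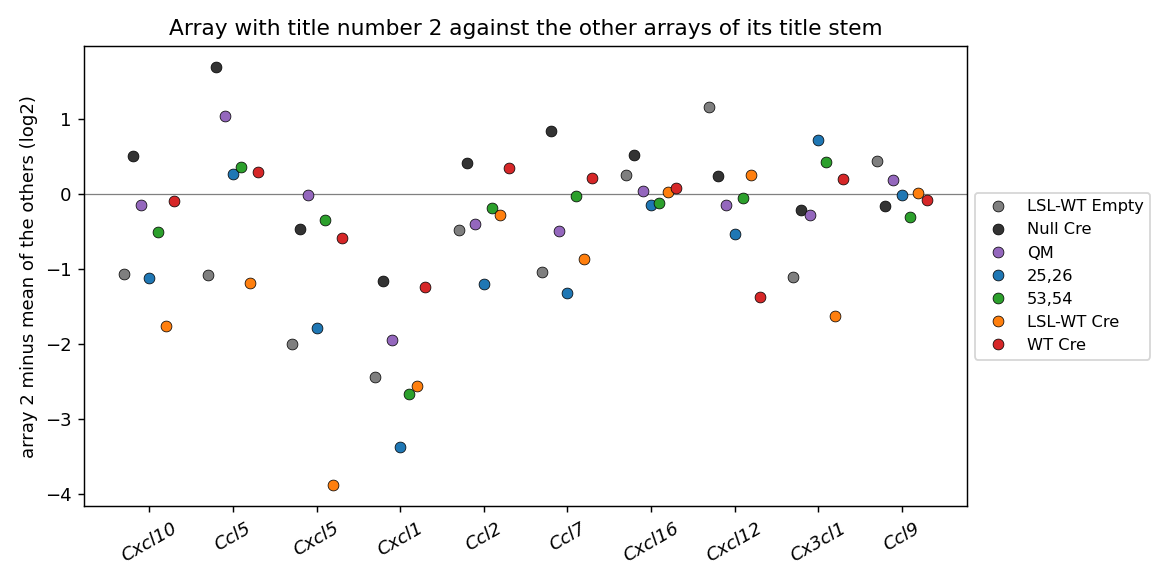
Log2 level of each chemokine in the array with number 2 in its title, minus the mean of the other arrays of that kind of sample (1 point per kind, 7 kinds). All 7 points of Cxcl1 lie between -3.37 and -1.16, while those of Cxcl16 lie between -0.14 and 0.52.

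Ccl2 and Ccl7, the monocyte-drawing chemokines next in role, were highest in Null Cre and were not called in WT against Null. Ccl2 was 13.27, 12.90 and 12.81 in Null Cre and 11.56, 11.35 and 12.08 in LSL-WT Empty. It was 11.95, 12.50 and 12.35 in WT Cre and 11.58, 11.41 and 11.78 in LSL-WT Cre. All Null Cre arrays lay above all others of these 4 kinds, and LSL-WT Empty lay with LSL-WT Cre. WT minus Null was -0.40 ± 0.30 (adjusted p = 0.408, interval -1.02 to 0.22). With Null Cre alone as Null it was -1.07 (adjusted p = 0.0118, range 0.0118 to 0.709 over 27 alternatives), and with LSL-WT Empty alone it was 0.27. Within the parts, WT Cre minus Null Cre was -0.73 ± 0.29 (adjusted p = 0.0966) and LSL-WT Cre minus LSL-WT Empty was -0.07 ± 0.29 (adjusted p = 0.945, interval -0.67 to 0.53).

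Ccl7 was 11.05, 10.35 and 10.05 in Null Cre, 9.07, 8.23 and 9.49 in LSL-WT Empty, 9.79, 10.14 and 10.05 in WT Cre and 9.33, 8.56 and 9.49 in LSL-WT Cre. The WT Cre arrays thus reached the Null Cre range. WT minus Null was -0.15 ± 0.37 (adjusted p = 0.847, interval -0.91 to 0.61). In the mutants Ccl7 was 9.05 to 9.73 in QM, 8.00 to 9.57 in 25,26 and 9.60 to 9.65 in 53,54, and Ccl2 was 11.86 to 12.27, 10.88 to 12.48 and 11.95 to 12.27. Neither gene was called in a mutant against Null or WT. With Null Cre alone as Null, 25,26 was lower for Ccl7 (-1.44, adjusted p = 0.0288) and Ccl2 (-1.16, adjusted p = 0.0335), the lowest of 26 alternatives that reached adjusted p of 0.925 and 0.848.

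Both kinds of sample without active p53 were then set against each other, since they differ in genotype and in Cre. Between LSL-WT Empty and Null Cre 1 of 10 chemokines was called, Cxcl16, where 0.216% of all genes tested were. Ccl2 differed by -1.33 ± 0.29 (adjusted p = 0.0622), Ccl7 by -1.55 ± 0.36 (adjusted p = 0.0807) and Cxcl5 by -2.48 ± 0.98 (adjusted p = 0.542). Together with Cxcl16 these were the 4 members whose arrays did not overlap, all lower in LSL-WT Empty, where 4.60% of genes tested lay lower without overlap. With array weights Ccl2 (-1.14, adjusted p = 0.0181) and Ccl7 (-1.24, adjusted p = 0.0261) also passed, the lowest of 19 alternatives that reached 0.309 and 0.389. With the strain background as a covariate Ccl7 passed (-1.87, adjusted p = 0.0288) and Cxcl16 did not (-0.65, adjusted p = 0.0626). All Null Cre samples were 129/Sv and 2 of 3 LSL-WT Empty samples were mixed, and genotype, Cre and lineage of the cells cannot be told apart here.

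Cxcl16, the membrane-bound ligand of CXCR6, had a narrow spread, with an SD of 0.15 within kinds of sample. It was 8.57, 7.98 and 8.11 in Null Cre and 7.41, 7.64 and 7.36 in LSL-WT Empty. In WT Cre it was 7.79, 7.77 and 7.59 and in LSL-WT Cre 7.76, 7.83 and 7.85, all below Null Cre, and all but WT Cre replicate 3 above LSL-WT Empty. It was 7.61, 7.62 and 7.55 in QM, 7.74, 7.64, 7.63, 7.84 and 7.91 in 25,26, and 7.74, 7.70 and 8.01 in 53,54. The means of the 2 kinds of sample joined as Null lay on either side of the WT mean, and WT minus Null was -0.08 ± 0.15 (adjusted p = 0.788, interval -0.38 to 0.22). With LSL-WT Empty alone as Null the sign turned, to 0.30 (adjusted p = 0.0353), and with Null Cre alone the value was -0.45 (adjusted p = 0.00902).

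The 2 parts of the WT comparison gave Cxcl16 values of opposite sign. It fell by 0.50 in WT Cre against Null Cre (-0.50 ± 0.13, adjusted p = 0.0124, 1.41-fold, limma), with no overlap. In that part 4 of 10 chemokines fell (Cxcl10, Ccl5, Cxcl5 and Cxcl16), where 15.9% of genes tested were called and 7.19% fell. These 4, Cxcl1 and Ccl2 lay lower without overlap, as did 12.6% of genes tested. Without Null Cre replicate 2 the value for Cxcl16 was -0.33 (adjusted p = 0.0774) and 2 chemokines were called, and over 19 alternatives its adjusted p ranged from 0.00648 to 0.152. LSL-WT Cre minus LSL-WT Empty was 0.34 ± 0.13 (adjusted p = 0.106) with no overlap (11.7% of genes tested lay higher without overlap), and it was higher in all 3 same-number pairs (0.35, 0.19 and 0.49). Blocked by title number it passed (0.34, adjusted p = 0.0334), which made 2 of 10 chemokines called where 26.7% of genes tested were. The parts differed by -0.84 ± 0.18 (adjusted p = 0.129, interval -1.23 to -0.45), and with the block by -0.81 (adjusted p = 0.0276, where 1.60% of genes tested were called against 0.00655% without it). LSL-WT Empty minus Null Cre was -0.75 ± 0.13 (adjusted p = 0.0217, limma), and leaving out LSL-WT Empty replicate 1 or 3 or Null Cre replicate 2 ended that call (adjusted p of 0.0701 to 0.123, over all 19 alternatives 0.00479 to 0.41). The lower probe set of the gene followed the one used (r = 0.89) but passed in none of these comparisons of 2 kinds of sample (limma, adjusted over all probe sets). Its values were -0.55 (adjusted p = 0.232) in WT Cre against Null Cre and 0.37 (adjusted p = 0.555) in LSL-WT Cre against LSL-WT Empty. In LSL-WT Empty against Null Cre it gave -1.14 (adjusted p = 0.147).

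**Figure D4:**
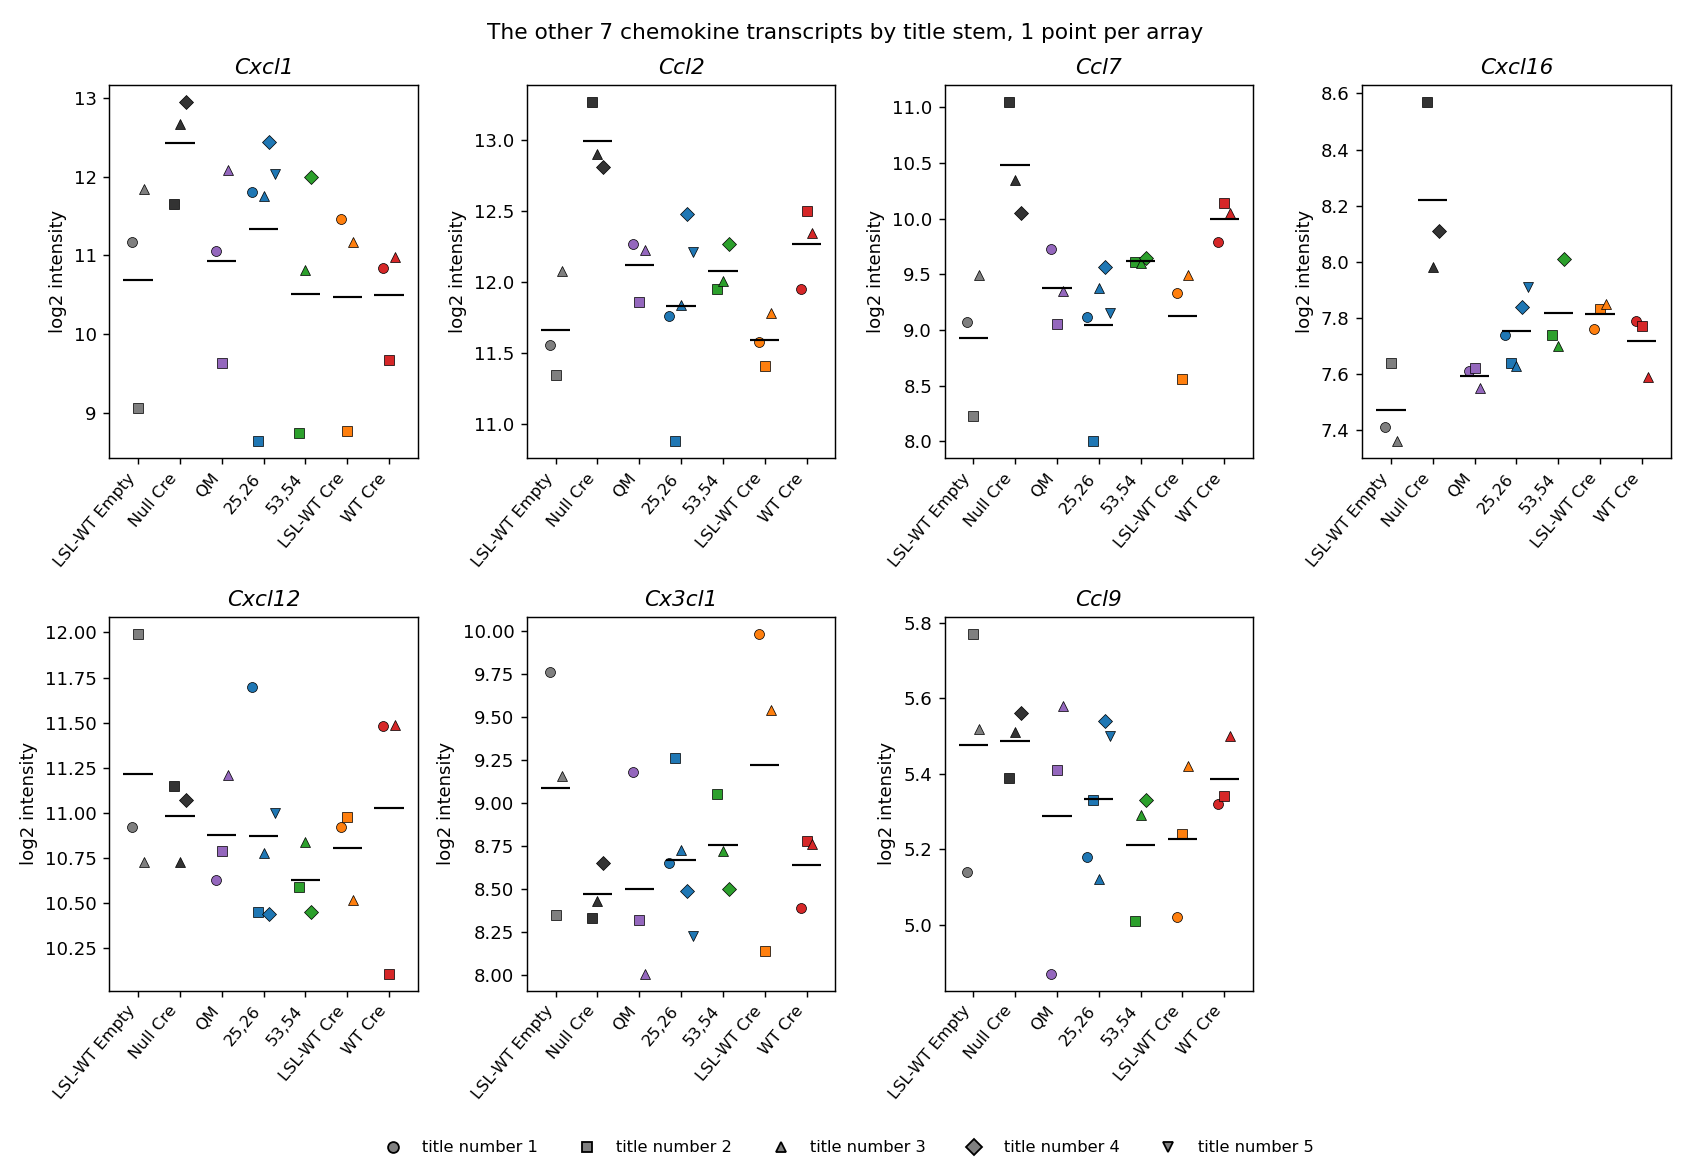
Log2 intensity of the 7 chemokine transcripts not called or called in 1 part only, by kind of sample, with bars at the means and shapes for the title number. Null Cre is the highest kind for Cxcl1, Ccl2, Ccl7 and Cxcl16, and the Cxcl1 array of number 2 (square) is the lowest in each kind.

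Cx3cl1, Cxcl12 and Ccl9 were called in no comparison without the block. Cx3cl1, the membrane-bound ligand of CX3CR1, spanned 8.01 to 9.98 over the arrays. It was 9.98, 8.14 and 9.54 in LSL-WT Cre and 9.76, 8.35 and 9.16 in LSL-WT Empty. The lowest array of each was the only 129/Sv one and the only one with high Xist. Among the other kinds the highest array was 25,26 replicate 2, of 129/Sv background, at 9.26. WT minus Null was 0.15 ± 0.30 (adjusted p = 0.798, interval -0.47 to 0.77). Of its 4 probe sets 2 never exceeded the filter level.

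Cxcl12, the stromal ligand of CXCR4, was expressed in all kinds of sample, between 10.11 (WT Cre replicate 2) and 11.99 (LSL-WT Empty replicate 2). WT minus Null was -0.18 ± 0.25 (adjusted p = 0.705, interval -0.70 to 0.34) on the probe set used. A second probe set gave -0.65 ± 0.25 (adjusted p = 0.0777 over all probe sets) and followed the one used with r = 0.85, while the third, low one followed it with r = 0.24. Ccl9 lay close to the filter level of 4.79, between 4.87 and 5.77, and its WT minus Null difference was -0.18 ± 0.12 (adjusted p = 0.352, interval -0.43 to 0.08).

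For 8 of the 10 transcripts the spread between arrays of the same kind was wider than for at least 86.9% of genes tested. The pooled SD within kinds of sample had a median of 0.50 over the 10 genes, against 0.20 over all genes tested. It was 1.33 for Cxcl1 and 1.32 for Cxcl5, above 99.9% of genes tested, and 0.75 for Cxcl10 and Ccl5, above 98.7%. Ccl9 and Cxcl16 lay above 59% and 27%. The same fold is therefore harder to call for Cxcl1 and Cxcl5 than for Cxcl16 at these numbers of arrays.

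The 3 pairs of like role that lack a membrane anchor varied together over the 23 arrays. These correlations describe points that share groups, title numbers and the normalization. For levels, Pearson's r was 0.92 for Ccl2 with Ccl7, 0.86 for Cxcl10 with Ccl5 and 0.71 for Cxcl1 with Cxcl5. For deviations from the mean of each kind of sample, the values were 0.86, 0.65 and 0.68. Cxcl10 and Ccl7 had 0.22 for levels and 0.70 for deviations, so that they varied together within kinds of sample and little between them. Ccl9 and Cx3cl1 ran opposite, with -0.52 and -0.62.

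The genes most like each chemokine were taken by Pearson's r over the 23 arrays. For Cxcl10 they were Oasl1 (r = 0.95), an interferon-induced gene, Nampt (0.94), which encodes an enzyme of NAD synthesis, and C2cd3 (0.93). For deviations from the kind's mean they were Gbp7 (0.94), Ifih1 (0.92) and Oasl1 (0.91), of which Ifih1 encodes the RNA sensor MDA5. For Ccl5 they were the interferon-induced Ifit1 (0.90), Oasl1 (0.87) and Brdt (0.87). For Cxcl1 they were Il6 (0.91), Preb (0.90) and Nfkbia (0.89), which encodes the NF-kB inhibitor. Within kinds of sample Preb, Nfkbia and Nasp each had 0.95 with Cxcl1. Cxcl5 was most like Cyp7b1 (0.89), Birc3 (0.87) and Lum (0.86), and Ccl2 most like Il6 (0.85), Slc4a4 (0.81) and the acute-phase gene Saa3 (0.80). Cxcl16 was most like Saa3 (0.86), Lcn2 (0.82) and Mmp9 (0.82), and Ccl7 most like Sod3 (0.85), Epas1 (0.83) and Lgals9 (0.80). Cx3cl1 had Fam181b and Ceacam1 (0.89 each) and Cds1 (0.87). Cxcl12 had Smarcd3 (0.85), Phka1 (0.71) and Spin2c (0.70), and Ccl9 had Fyttd1 (0.82), 4932438A13Rik (0.80) and Kif7 (0.79).

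Counts of called genes in the next lists are to be read against the share over all genes tested. That share was 22.7% in WT against Null, 15.9% in WT Cre against Null Cre and 11.7% in LSL-WT Cre against LSL-WT Empty. Among 19 other chemokine genes tested, 1 fell in WT against Null and none rose. This was Cxcl3, another CXCR2 ligand (-1.24 ± 0.39, adjusted p = 0.0252), at 3.78 to 4.51 in the WT arrays, below the filter level, 5.19 to 7.02 in Null Cre and 4.41 to 5.12 in LSL-WT Empty, which overlapped with WT. Between WT Cre and Null Cre Cxcl3 (-1.94 ± 0.48, adjusted p = 0.00867) and Ccl20, the CCR6 ligand (-1.04 ± 0.33, adjusted p = 0.0348), fell. Between LSL-WT Cre and LSL-WT Empty 0 of these 19 were called by limma, and 0 had an unadjusted p under 0.05. Of 14 chemokine receptor genes tested 1 rose in WT against Null, Ccr1 (1.72 ± 0.53, adjusted p = 0.0228), a receptor for CCL5, CCL7 and CCL9. Its level was 7.92 to 9.77 in WT Cre and 6.67 to 9.34 in LSL-WT Cre, against 6.66 to 7.46 in Null Cre and 5.09 to 7.78 in LSL-WT Empty, so that WT and Null overlapped. Of 8 genes for proteases that act on chemokines and their inhibitors 0 passed in WT against Null by limma and 3 had an unadjusted p under 0.05 (Timp3 and Timp1, which encode inhibitors of metalloproteases, and Adam17, which encodes a protease that releases CX3CL1, at -0.21 ± 0.10, adjusted p = 0.134), and between WT Cre and Null Cre the inhibitor gene Timp1 rose and the protease gene Mmp9 fell.

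For the lists of genes that act upstream of chemokines, counts called in WT against Null are to be read against the 22.7% of all genes tested that were called, and they are no result about the pathways. Of 17 NF-kB pathway genes tested, 2 rose (Ikbkg 0.42 ± 0.09, Traf6 0.27 ± 0.09) and 2 fell (Traf2 -0.46 ± 0.08, Bcl3 -1.34 ± 0.26) in WT against Null. Of 20 genes of interferon signalling 2 rose (Tyk2 0.43 ± 0.11 and Mavs 0.37 ± 0.13) and 1 fell (Ifih1 -1.25 ± 0.44, adjusted p = 0.0462). Of 21 interferon-stimulated genes 2 rose (Tap1 2.05 ± 0.30, a peptide transporter gene, and Ifi35 0.71 ± 0.18) and 4 fell (Oasl1 -1.93 ± 0.38, Ifit1 -1.83 ± 0.58, Rsad2 -1.07 ± 0.31 and Ifit2 -0.61 ± 0.17), with a median of -0.61 against 0.00 over all genes. Between WT Cre and Null Cre 9 of the 21 fell and 1 rose, with a median of -1.15. There 15.9% of all genes tested were called and 7.19% were called lower. Between LSL-WT Cre and LSL-WT Empty, where Cxcl10 fell, 2 rose (Tap1 and Ifi35) and 0 fell by limma, with a median of -0.02. There 11.7% of genes tested were called, and 2 of the 21 were lower at an unadjusted p under 0.05 (Oasl1 and Ifit2). Of 16 inflammatory cytokine genes 3 rose and 2 fell in WT against Null. The WT minus Null value of Il6 was -1.63 ± 0.99 (adjusted p = 0.283), and its level was 10.74 to 11.73 in Null Cre and 6.66 to 8.87 in LSL-WT Empty.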

How the data were processed

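RNA of 23 samples of mouse embryonic fibroblasts was measured on Affymetrix oligonucleotide arrays. The authors deposited 1 column of RMA values per sample, as intensity on a linear scale from 8.55 to 32042.05; RMA is named in the submitters' processing notes, and its version and options are not given in the sources used here. Array medians of intensity lay between 59.9 and 64.2, and all levels here are log2 of the deposited values.

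Of 45101 probe sets, 64 controls were left out, 34945 had 1 gene symbol in the platform annotation, 932 had several and 9160 were not listed. Where a gene had several probe sets, the one highest on average stood for it (18193 genes). Tests covered the 15266 genes with 3 or more arrays over a log2 level of 4.79, which is the 30th percentile of all levels. limma 3.58.1 in R 4.3.3 was fitted to all arrays, as a model of 5 groups and as a model of 7 kinds of sample by title, with two-sided moderated tests, Benjamini-Hochberg adjustment and a threshold of 0.05. The procedure was tested on simulated data. Python 3.11.15 gave the descriptions.

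The members and gene lists were chosen with earlier results of these data known. All members are reported; from the other lists the text draws on the 4 genes with the largest moderated statistic in WT minus Null and the 3 genes most like each member. The rule also took the 2 receptors and 2 other chemokines with the highest mean, which are not printed because levels of different probe sets cannot be compared. Genes named beside these in the counts of called genes, and Il6, were named after their values were seen. Some genes are not reported here.

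Same-number arrays were taken as paired where, with 3 or more pairs, every correlation of residuals exceeded 0.1. This held in all comparisons over the 5 groups (10 of 10 pairs in WT with Null, median 0.39 against -0.19 for other numbers) and for LSL-WT Cre with LSL-WT Empty (0.72 to 0.80). WT Cre with Null Cre and LSL-WT Empty with Null Cre had 2 pairs each. The block on the title number was run only as an alternative, in every comparison. All other fits leave the pairing out, so their SE, adjusted p and counts do not take it into account. Promoter windows of 250 bases came from RefSeq (GRCm38.p6). Alternatives covered filters, probe sets, normalization, covariates, the block, variances, array weights, the arrays fitted, single arrays left out and, added after the data were seen, leaving out the arrays of title number 2.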

Additional observations from a re-analysis of the deposited data

Results flagged for a closer look

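Of 30 sets of 5 or 6 arrays (10 genes in WT, Null and 25,26), 4 held an array farther from the others than Dixon's limit. The nominal rate of 5% holds for independent sets of like arrays. These sets share arrays, and WT and Null each join different kinds of sample, so that 5% is not their chance rate. Cxcl1 read 8.64 in 25,26 replicate 2, with the next array at 11.75, and Ccl7 read 8.00 in that array, with the next at 9.12 and a gap at the limit itself. In Null, Cxcl12 read 11.99 in LSL-WT Empty replicate 2, with the next at 11.15. In WT, Cxcl16 read 7.59 in WT Cre replicate 3, with the next at 7.76. This is the sample whose genotype label differs from its title.

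Cxcl16 was lower in every WT Cre array than in every Null Cre array, as were 12.6% of genes tested. It was higher in every LSL-WT Cre array than in every LSL-WT Empty array, as were 11.7% of genes tested. The share of genes with both patterns was not computed. The difference between the parts was -0.84 (limma, adjusted p = 0.129). With the block on the title number the adjusted p was 0.0276, the lowest of 25 alternatives that reached 0.49, and the only 1 that passed. WT Cre and Null Cre had only 2 same-number pairs and were not taken as paired.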

How the results depend on the processing

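Of 2529 values of single chemokines under the alternatives, 2455 kept their side of the threshold (values not called could change sign), 53 dropped below it, 19 rose past it and 2 reversed. The reversals were those of Cxcl16 with LSL-WT Empty alone as Null, to 0.30 in WT against Null and 0.35 in 53,54 against Null. The cause was not tested.

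With the title number as a replicate block the number of chemokines called was 3 in 53,54 against Null (1 without it), 2 in LSL-WT Cre against LSL-WT Empty (1) and 1 in the difference between the parts (0). In WT Cre against Null Cre, with 2 pairs, the block gave Cxcl1 -1.66 (adjusted p = 0.00799). The block changed the call of no other chemokine. Null Cre alone as Null gave 5 in WT (3 with all 6 arrays), 3 in 25,26 (0) and 2 in 53,54 (1). LSL-WT Cre alone as WT gave 0 in 25,26 (1) and 1 in QM (2). Array weights gave 2 in 25,26 against Null (0), 2 in LSL-WT Cre against LSL-WT Empty (1) and 3 in LSL-WT Empty against Null Cre (1). Fits of the compared arrays alone, with fewer samples, gave 0 in 25,26 against WT, 1 in QM against WT, 0 in LSL-WT Cre against LSL-WT Empty and 0 in LSL-WT Empty against Null Cre. The mean of probe sets gave 0 in the last. Without the arrays of title number 2, chosen after seeing the data, 1 was called in WT against Null, 0 in 25,26 against WT, 1 in QM against WT, 0 in LSL-WT Cre against LSL-WT Empty and 0 in LSL-WT Empty against Null Cre. Calls over all genes also moved between the alternatives, for example from 346 to 2167 in 25,26 against Null. The counts of chemokines here stand without the share over all genes in the same fit, so they are no result about chemokines as a set.

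Leaving out single arrays gave 2 to 3 in WT against Null, 0 to 1 in 53,54 against Null, 0 to 1 in 25,26 against WT, 1 to 2 in QM against WT, 0 to 1 in LSL-WT Cre against LSL-WT Empty, 2 to 4 in WT Cre against Null Cre and 0 to 1 in LSL-WT Empty against Null Cre. Calls over all genes are given next over every alternative, not only those that left out single arrays. The fit of all probe sets counted probe sets in place of genes. Calls ran from 2523 to 5746 in WT against Null (3465 as reported) and from 346 to 2167 in 25,26 against Null (656). They ran from 1923 to 5457 in 53,54 against Null (2986) and from 0 to 23 in QM against Null (2). Against WT they ran from 505 to 2288 in 25,26 (1176), from 3 to 734 in 53,54 (56) and from 1284 to 4025 in QM (2125). They ran from 807 to 4078 in LSL-WT Cre against LSL-WT Empty (1785), from 1186 to 4297 in WT Cre against Null Cre (2433), from 0 to 245 in the difference between these (1) and from 0 to 177 in LSL-WT Empty against Null Cre (33). The deposited values hold no background measure for single probe sets, so how far low signals such as those of Ccl9 and of Cxcl10 in WT limit a fold was not tested.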
